A study of Mus musculus with 8 samples.

Results

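The 7 genes examined here encode the G protein-coupled receptor kinases and the beta-arrestins, the proteins that switch off and internalize an activated receptor: Adrbk1 (now named Grk2), Adrbk2 (now Grk3), Grk4, Grk5, Grk6, Arrb1 and Arrb2. They were chosen by name, and all 7 were found among the 18939 genes with a count in at least 1 library, and the transcript with the most counts over the 8 libraries stood for each gene. RNA bound to tagged ribosomes was purified from mu-opioid receptor (MOR) expressing cells of the paraventricular nucleus of the thalamus (PVT) by translating ribosome affinity purification (TRAP) and sequenced. All mice carried Cre inserted at Oprm1, the MOR gene, and an EGFP-L10a ribosomal tag that Cre switches on, on a C57Bl/6J background, and were 8 to 12 weeks old at the start. The 4 morphine libraries came from mice that drank morphine in 0.2% saccharin for 11 days, at 0.3 and then 0.5 mg/ml, and the 4 control libraries from mice given 0.2% saccharin alone. Each library pooled gross dissections aimed at the PVT from 2 mice of the same sex, and each group held 2 libraries labelled male and 2 labelled female. The tag is expressed in every cell with a history of Cre activity in the dissected tissue, so the libraries are not limited to PVT neurons that expressed Oprm1 at the time of collection.

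When an agonist activates a receptor, receptor kinases can phosphorylate its intracellular parts. Arrestins then bind the phosphorylated receptor, uncouple it from its G protein and link it to clathrin and the adaptor AP-2 for endocytosis. How far this goes depends on the agonist, and it was not measured here for morphine. GRK2 and GRK3 reach the membrane by binding G protein beta-gamma subunits, whereas GRK4, GRK5 and GRK6 form a separate subfamily that attaches to membranes by lipid groups or basic residues. Beta-arrestin 1 and beta-arrestin 2 also act as scaffolds for kinases, and beta-arrestin 2 is the form best known for its role in MOR desensitization and in the behavioral response to morphine. These are background facts on the proteins, and the values below are RNA counts on ribosomes, which do not report kinase activity or protein amount.

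The deposited table lists 12 transcripts for the 7 genes, and for Grk6, Arrb1 and Grk4 the listed forms differ in coding sequence. The sequences are shown to say what separates the listed forms. The table gives different counts for NM_011938 of Grk6 and for the Grk4 forms, and the same counts for the other pairs shown. They were read from the GENCODE M21 models (GRCm38, plus strand, written 5′ to 3′) of the RefSeq transcripts. The 3 forms of Grk6 share all coding exons up to the last junction and differ in the C-terminal tail of the kinase, and they code for 589, 576 and 560 codons. In the lines for Grk6, lower case marks the last 30 shared bases and capitals mark the coding bases that follow, with the stop codon. The capitals lie at chr13:55459782-55459874, chr13:55459784-55459837 and chr13:55459333-55459338 in the order shown.
Grk6 NM_001038018: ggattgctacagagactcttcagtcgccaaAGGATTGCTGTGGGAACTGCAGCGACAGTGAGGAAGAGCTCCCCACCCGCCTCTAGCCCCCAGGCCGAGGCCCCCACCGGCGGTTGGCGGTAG
Grk6 NM_001112711: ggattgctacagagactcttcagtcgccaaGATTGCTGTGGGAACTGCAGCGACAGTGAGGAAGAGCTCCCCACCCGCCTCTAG
Grk6 NM_011938: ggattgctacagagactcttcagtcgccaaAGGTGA

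NM_011938 ends with its own last exon, which does not overlap the last exon of NM_001038018. The other 2 forms use nearly the same last exon, joined 2 bases apart, so they are read in different frames and stop at different places. The 2 forms of Arrb1 differ by an exon of 24 bases, or 8 codons, at chr7:99597036-99597059. Capitals mark that exon in the longer form, and lower case marks the 30 bases on each side, which meet directly in the shorter form.
Arrb1 NM_177231: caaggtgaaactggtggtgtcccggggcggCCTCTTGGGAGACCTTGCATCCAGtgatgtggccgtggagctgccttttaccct
Arrb1 NM_178220: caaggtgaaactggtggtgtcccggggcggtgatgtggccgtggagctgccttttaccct

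The Grk4 forms part after the fifth exon. NM_019497 runs through 16 exons and codes for 574 codons, and NM_001080743 ends in a last exon of its own after 6 exons and codes for 177 codons. Capitals mark the coding bases of the next exon of each form, at chr5:34698863-34698956 for NM_001080743, with its stop codon, and at chr5:34710133-34710225 for NM_019497.
Grk4 NM_001080743: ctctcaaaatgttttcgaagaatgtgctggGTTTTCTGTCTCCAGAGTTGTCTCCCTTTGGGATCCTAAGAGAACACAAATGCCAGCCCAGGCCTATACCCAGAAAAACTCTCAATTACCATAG
Grk4 NM_019497: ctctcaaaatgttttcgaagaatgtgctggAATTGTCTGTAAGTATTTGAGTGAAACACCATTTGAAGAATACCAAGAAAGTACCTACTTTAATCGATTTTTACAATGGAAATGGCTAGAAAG

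Summed over all 18939 genes, the control libraries held 37081348 to 43311793 counts and the morphine libraries 31151103 to 47582947, so counting error was small for 6 members (880 counts or more in every library) and large for Grk4 (27 to 66 counts). Control 5 is labelled female, but 4 Y-linked genes summed to 49.5 CPM (counts scaled to library size) in it, against 0.0206 to 0.0649 CPM in the other libraries labelled female and 128 to 171 CPM in those labelled male. Its Xist level, 1.58 CPM, was within the range of the libraries labelled female (1.46 to 3.49 CPM), and Xist had no counts in those labelled male, so the sex of the mice pooled in control 5 is uncertain. Neuron markers were high in all libraries (Snap25, a synaptic protein, 3156 to 4196 CPM), as was the thalamic transcription factor Tcf7l2 (686 to 1359 CPM). The 7 thalamus and PVT markers include Oprm1, which is also given on its own below. Of these markers 1 was above 0 on the log2 fold change scale. Lower means in morphine libraries at an unadjusted p under 0.05 by edgeR were found for 2, Oprm1 among them. Their score, the mean log2 CPM, was 5.83 to 5.96 in the controls, 5.95 in morphine 7 and below every control in morphine 3, 4 and 8 (5.65, 5.49 and 5.26). Marker levels of neighboring tissue also moved with the groups. The 10 choroid plexus genes, such as Ttr, summed to 24.2 to 137 CPM in control and 202 to 657 CPM in morphine libraries, with 10 of 10 above 0 on the log2 fold change scale and Kcnj13 at 0 in 1 library. The 9 genes of telencephalic pyramidal neurons, such as Nrn1, summed to 351 to 639 CPM in control and 655 to 947 CPM in morphine libraries, with 9 of 9 above 0. The telencephalic score overlapped between the groups, at 2.90 to 5.13 in controls, with control 6 highest, and 4.56 to 5.75 in morphine libraries, and the choroid plexus score did not (-0.33 to 2.15 and 2.38 to 3.76). Of the oligodendrocyte genes 6 of 6 and of the astrocyte genes 5 of 6 were above 0, none at an unadjusted p under 0.05 by edgeR. Their sums overlapped between the groups (oligodendrocytes 116 to 1176 CPM in control and 537 to 1437 CPM in morphine libraries). Of the microglia genes 2 of 6 and of the endothelial genes 1 of 5 were above 0. Microglia markers summed to at most 5.22 CPM and endothelial markers to at most 5.85 CPM. Oprm1 itself was at 32.3, 29.4, 16.8 and 22.7 CPM in controls 1, 2, 5 and 6 and at 15.9, 14.0, 17.6 and 18.4 CPM in morphine libraries 3, 4, 7 and 8. The groups overlapped, with a log2 fold change of -0.62 (SE 0.19). The adjusted p was 0.207 by edgeR's quasi-likelihood test and 0.0596 by DESeq2. The difference of mean log2(CPM + 0.5) was -1.02 in libraries labelled male and -0.12 in those labelled female.

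None of the 7 members passed the test between morphine and control mice after adjustment over all genes. The means of 5 members were lower in morphine libraries (Adrbk1, Adrbk2, Grk5, Grk6 and Arrb1) and those of Grk4 and Arrb2 higher, and each member's libraries overlapped between the groups. The differences in either direction were small: the log2 fold changes ran from -0.25 for Grk5 to 0.27 for Grk4, with a median of -0.13, against a median of 0.0088 over all 18939 genes. With Benjamini-Hochberg adjustment of edgeR's p values, 0 of 7 members and 37 genes in all passed an adjusted p of 0.05, which is 0.195% of the genes tested. DESeq2 called 0 of 7 members and 502 of the 15260 genes to which it gave an adjusted p, or 3.29%. At an unadjusted p under 0.05, 2 members passed by edgeR, Arrb1 and Grk6, both with lower means in morphine libraries, while 12.1% of all genes passed in either direction and 5.31% with lower means in morphine libraries. The number of members whose CPM did not overlap between groups was 0 of 7, against 6.54% of all genes. The edgeR and DESeq2 p values set the group difference against the spread between pooled libraries, estimated in part from all genes. The spread between single mice is not seen in pools. In a bulk library fewer cells of a type and less RNA per cell cannot be told apart.

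**Figure D1:**
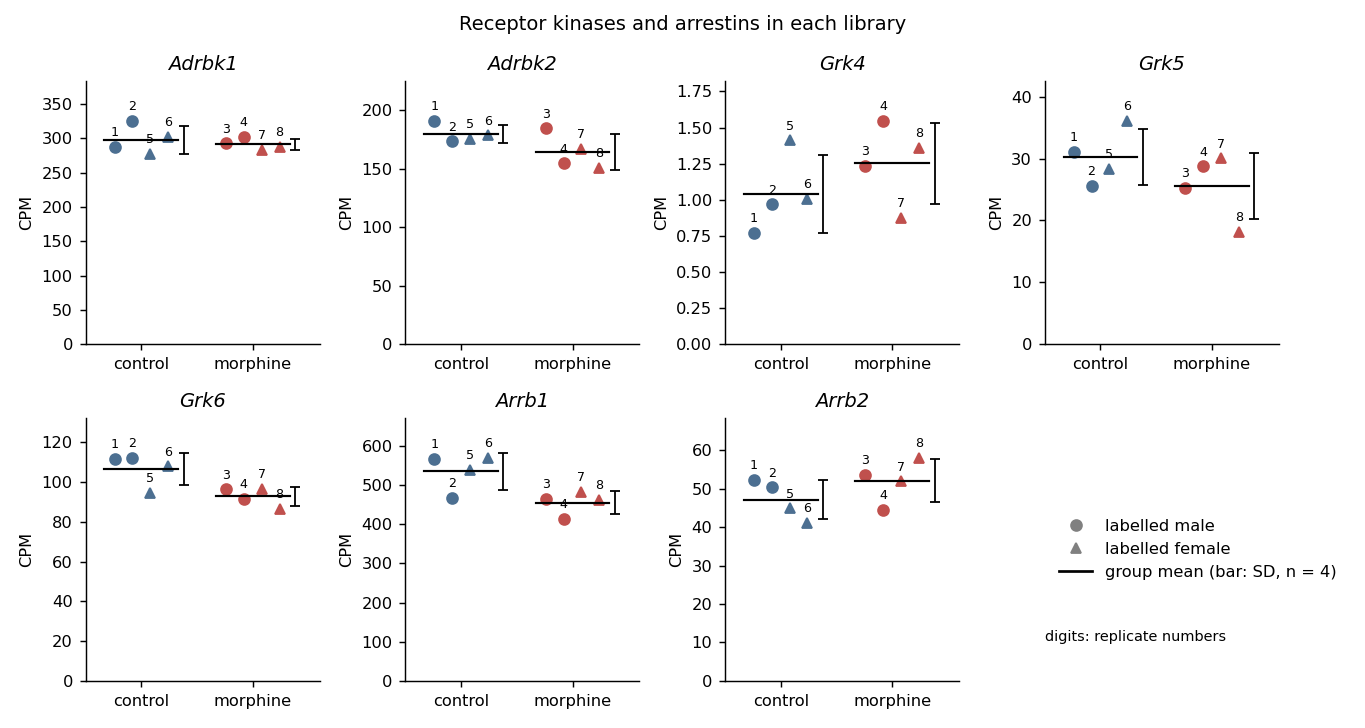
CPM of each member (y axis, from 0) in the 4 control and 4 morphine libraries, with circles for libraries labelled male, triangles for those labelled female, digits for replicate numbers, lines for group means and bars for the SD. The groups overlap in all 7 panels, for Arrb1 by control 2 alone and for Grk6 by control 5 alone among the controls.

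Of the beta-gamma binding kinases, Adrbk1 was the steadier over all 8 libraries (SD of log2 CPM 0.0711, against 0.118 for Adrbk2). Among the controls alone Adrbk2 was the steadier, with an SD of 4.28% of its mean against 6.87% for Adrbk1. Adrbk1 (chr19:4285999-4306222 in RefSeq, GRCm38) encodes GRK2, the kinase most studied for beta-adrenergic and opioid receptors. Its level was 288, 325, 278 and 302 CPM in controls 1, 2, 5 and 6 and 293, 302, 283 and 288 CPM in morphine libraries 3, 4, 7 and 8. All 4 morphine libraries lay inside the range of the controls. The group means were 298 ± 20.5 and 292 ± 8.06 CPM (SD, n = 4 each), and the log2 fold change was -0.03 (SE 0.087, adjusted p = 0.905 by edgeR). Its 95% interval ran from a fold of 0.856 to 1.12. Its sign rested on control 2, without which the log2 fold change was 0.012.

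Adrbk2 (chr5:112910478-113015660) encodes GRK3, the close relative of GRK2. It was at 191, 174, 176 and 179 CPM in the controls and at 185, 155, 167 and 151 CPM in the morphine libraries. Morphine 3 lay within the control range and the other 3 morphine libraries below it. The means were 180 ± 7.68 and 164 ± 15.2 CPM, with a log2 fold change of -0.13 (SE 0.092, adjusted p = 0.618 by edgeR). The exact two-sided permutation test over the 70 arrangements of the libraries, whose smallest possible p is 0.0286, gave p = 0.143.

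Within the GRK4 subfamily, Grk6 was the most abundant, Grk6 and Grk5 both had lower means in morphine libraries, with a wider spread for Grk5, and Grk4 had few counts. Grk6 (chr13:55445072-55460927), a kinase widely expressed in the brain, was at 112, 112, 94.6 and 108 CPM in the controls and at 96.3, 91.7, 96.7 and 86.7 CPM in the morphine libraries. Control 5 lay among the morphine libraries, and the other 3 controls lay above all of them. The means were 107 ± 8.25 and 92.8 ± 4.72 CPM, a log2 fold change of -0.20 (SE 0.090, 95% interval -0.40 to -0.0028). The unadjusted p was 0.0473 by edgeR, the adjusted p was 0.406 and the exact permutation test gave p = 0.0857. Without control 5 the log2 fold change was -0.27 (adjusted p = 0.328 by edgeR).

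Grk5 (chr19:60889560-61095968) encodes a kinase that calcium-bound calmodulin inhibits. It was at 31.2, 25.6, 28.3 and 36.1 CPM in the controls and at 25.3, 28.7, 30.03 and 18.1 CPM in the morphine libraries. The lowest value was that of morphine 8 and the highest that of control 6, and the other 6 libraries were mixed. The means were 30.3 ± 4.48 and 25.5 ± 5.35 CPM, with a log2 fold change of -0.25 (SE 0.16, adjusted p = 0.595 by edgeR). Without morphine 8 the log2 fold change was -0.11, and over the 8 omissions of a single library it ran from -0.35 to -0.11. Its 95% interval spanned folds of 0.658 to 1.08.

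Grk4 (chr5:34660250-34755305), known for its expression in testis and kidney, was at 0.769, 0.968, 1.41 and 1.00 CPM in the controls and at 1.24, 1.54, 0.877 and 1.36 CPM in the morphine libraries. Controls 2, 5 and 6 lay inside the range of the morphine libraries, and morphine 3, 7 and 8 inside that of the controls. The log2 fold change was 0.27 (SE 0.27, adjusted p = 0.686 by edgeR), with a 95% interval from a fold of 0.805 to 1.81.

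The arrestins had means that differed in opposite directions, neither past the adjusted threshold. Arrb1 (chr7:99535147-99606772), which encodes beta-arrestin 1, had the most counts of the 7 members. It was at 566, 468, 538 and 569 CPM in the controls and at 464, 413, 481 and 462 CPM in the morphine libraries. Control 2 lay below morphine 7, and the other 3 controls lay above every morphine library. The means were 535 ± 47.2 and 455 ± 29.3 CPM, a log2 fold change of -0.23 (SE 0.10, 95% interval -0.45 to -0.014). The unadjusted p was 0.0391 by edgeR, the adjusted p was 0.379 and the exact permutation test gave p = 0.0571. Leaving out control 2 gave -0.29 with an adjusted p of 0.134 by edgeR, the lowest of any member under any alternative.

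Arrb2 (chr11:70432485-70440828), which encodes beta-arrestin 2, was at 52.2, 50.3, 44.9 and 41.2 CPM in the controls and at 53.6, 44.6, 51.9 and 58.0 CPM in the morphine libraries. Morphine 3 and morphine 8 lay above all controls, and morphine 4 lay below 3 of them. The means were 47.1 ± 5.05 and 52.0 ± 5.59 CPM, with a log2 fold change of 0.14 (SE 0.11, adjusted p = 0.651 by edgeR). The 95% interval ran from a fold of 0.931 to 1.31.

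**Figure D2:**
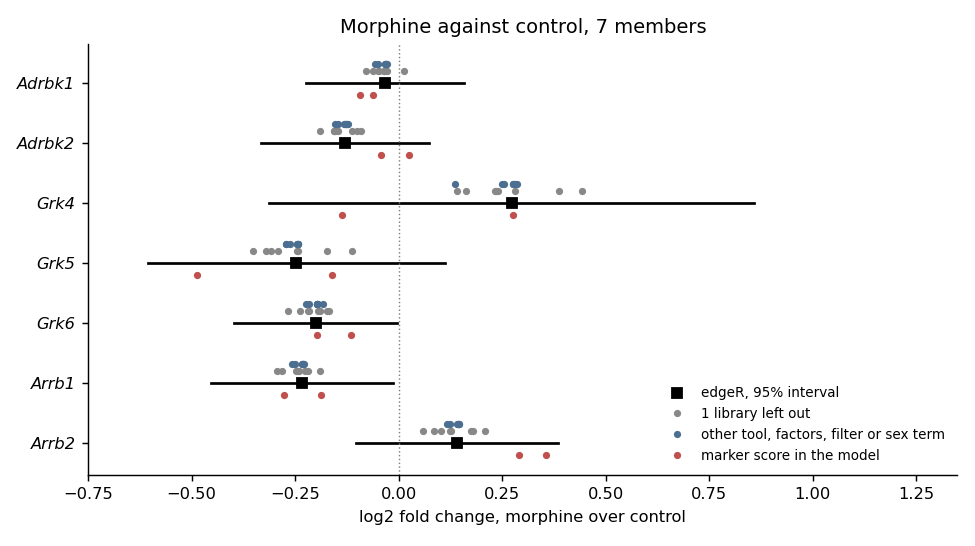
Log2 fold change of morphine over control (x axis) for each member: the black square is edgeR's value with its 95% interval, grey points leave out 1 library, blue points use another tool, scaling factor, filter, sum or sex term, and red points add a marker score to the model. The intervals of Arrb1 and Grk6 end just below 0 and the other 5 include it.

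The choroid plexus score and, other than in control 6, the telencephalic score moved with the condition, and each was added to the model in turn. The thalamic score, lower in 3 of 4 morphine libraries, was not. With the telencephalic score the log2 fold change of Arrb1 was -0.28 and that of Grk6 -0.20, and with the choroid plexus score they were -0.19 and -0.12. Arrb2 stood at 0.36 and 0.29, and Grk5 at -0.49 and -0.16. The values of Adrbk2 (-0.04 and 0.024) and Grk4 (0.28 and -0.14) changed sign with the choroid plexus score, while that of Adrbk1 was -0.06 and -0.09. No adjusted p was under 0.05 in either model, and the standard errors were larger, for example 0.16 and 0.17 for Arrb1. The part of neighboring tissue or of thalamic RNA in the members' differences was not tested.

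Across genes, levels can be compared only per transcript length, and here they are CPM per kb of the GENCODE transcript model. Adrbk1 stood highest, at a mean of 92.7 CPM per kb over the 8 libraries (range 87.4 to 102), followed by Arrb1 at 69.4 (57.9 to 79.8). Grk6 was at 33.3 (28.9 to 37.5), Arrb2 at 26.8 (22.3 to 31.4) and Adrbk2 at 26.3 (23.1 to 29.2) CPM per kb. Grk5 was lower, at 4.24 (2.75 to 5.48), and Grk4 lowest, at 0.354 (0.238 to 0.477). The order from Adrbk1 to Arrb1 to Grk6 held in 8 of 8 libraries, and so did that from Adrbk2 to Grk5 to Grk4. Grk6 was above Arrb2 in 7 of 8 libraries, and Arrb2 above Adrbk2 in 5 of 8, so Arrb2 and Adrbk2 did not differ beyond their spread. The place of Arrb1 depended on the transcript used. Its 2 forms have identical counts, and with the shorter model (3.715 in place of 7.132 kb) Arrb1 was at 133 CPM per kb and above Adrbk1 in 8 of 8 libraries. For Grk6 the shorter of its tied models gave 49.9 CPM per kb, which did not alter its place in the order of the means. Whichever model was used, Arrb1 was above Arrb2 per kb and GRK2 RNA was above GRK3 RNA in each library.

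**Figure D3:**
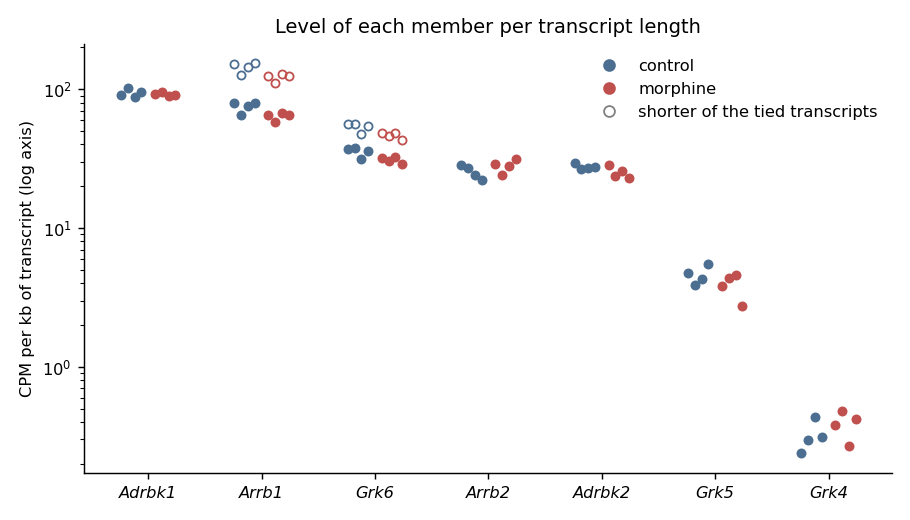
CPM per kb of transcript (log axis) for each member in the 4 control (blue) and 4 morphine (red) libraries, with open circles for the shorter of the transcripts that tie in count. Adrbk1, Arrb1 and Grk6 lie above 28.9, Arrb2 and Adrbk2 share a level between 22.3 and 31.4, and Grk4 is below 0.477 in all libraries.

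The ratio of the beta-arrestin RNAs within a library does not depend on the scaling between libraries. Arrb1 had 10.8, 9.294, 11.99 and 13.8 counts for each Arrb2 count in controls 1, 2, 5 and 6, and 8.67, 9.270, 9.277 and 7.96 in morphine libraries 3, 4, 7 and 8. The groups did not overlap, but only just: control 2 (counting interval 8.89 to 9.70) was level with morphine 7 (8.80 to 9.76) and morphine 4 (8.77 to 9.77) within counting error. The mean ratio was 11.5 ± 1.91 in control and 8.79 ± 0.625 in morphine libraries (SD, n = 4 each). The mean log2 ratio differed by -0.37, and by -0.47 to -0.28 when 1 library at a time was left out. Of 13702 other genes compared with Arrb2 in the same way, 6.50% had ratios that did not overlap between the groups. The count ratio of Adrbk1 to Adrbk2 was 1.66 ± 0.160 in control and 1.79 ± 0.175 in morphine libraries, and that of Grk6 to Grk5 was 3.58 ± 0.595 and 3.75 ± 0.749, with overlapping groups in both cases.

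Among the transcripts, the Grk6 forms differed in their relative counts. NM_011938, the form that ends after AGG and a stop in the sequences above, had 67.6%, 69.7%, 68.3% and 69.4% of the count of NM_001038018 in controls 1, 2, 5 and 6. In morphine libraries 3, 4, 7 and 8 it had 73.4%, 71.3%, 71.0% and 71.4%. Every morphine library was above every control library, and the means were 68.8 ± 0.973% and 71.8 ± 1.10%. Of 3987 transcripts other than the highest of their gene, 5.74% had relative counts that did not overlap between the groups. A gene with several such transcripts enters more than once. Reads on shared exons are counted for each form, and NM_011938 has a last exon of its own, so this is a ratio of partly overlapping counts and not the fraction of Grk6 RNA in the short form. It moves with the reads on the last exon of either form. The mean difference was 3.00 percentage points, and 2.45 to 3.31 when 1 library at a time was left out.

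**Figure D4:**
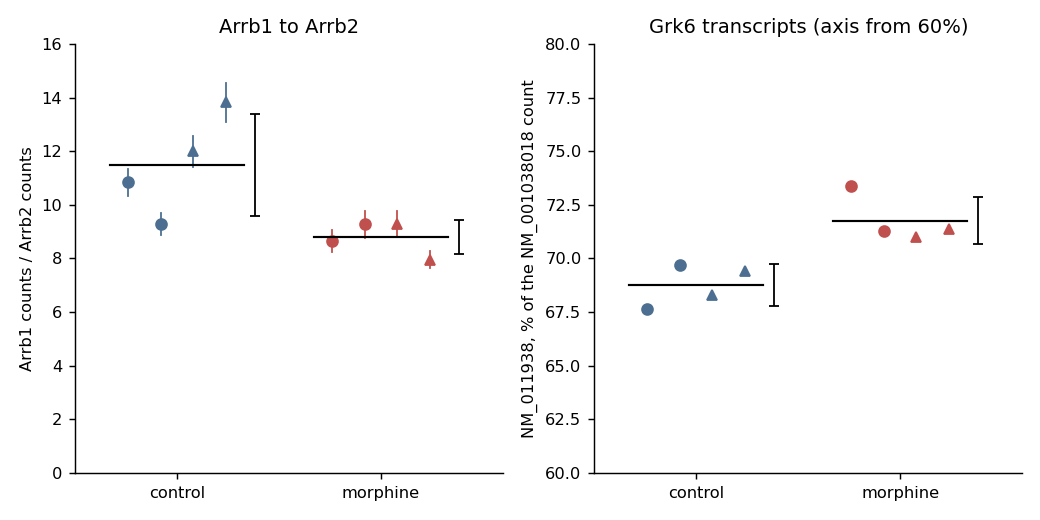
Left, Arrb1 counts divided by Arrb2 counts in each library (y axis from 0). Right, the count of the Grk6 transcript NM_011938 as a percentage of that of NM_001038018 (y axis from 60%). Circles are libraries labelled male, triangles those labelled female, thin bars (left only) 95% counting intervals, black lines and bars the mean and SD of 4 libraries. The groups are separate in both panels, by a narrow margin on the left (9.294 against 9.277).

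The other forms gave less. NM_001112711 of Grk6 and NM_178220 of Arrb1 had exactly the counts of their partner in all 8 libraries, so the table does not separate them, including use of the exon of 24 bases shown for Arrb1. The second form of Adrbk2, NM_001035531, held 312 to 526 counts, or 4.97 to 6.41% of NM_177078 in control and 5.97 to 7.17% in morphine libraries, which overlap. For Grk4, the form used is the one with 177 codons, and the full kinase form NM_019497 had 17 to 41 counts, so both forms rest on few reads. Its count was 54.2 to 95.3% of that of NM_001080743 in control and 51.0 to 63.6% in morphine libraries, a ratio of the counts of forms that share only their first exons and not a part of a whole.

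No member passed the test between the labelled sexes. With condition in the edgeR model, 0 of 7 members and 1 gene in all were called between female and male libraries, or 0.00528% of the genes tested, and DESeq2 called 0 members and 21 genes. An unadjusted p under 0.05 was reached by 0 members and 587 genes. The largest differences between the labelled sexes were 0.10 for Arrb1 (513 ± 49.8 CPM in female and 478 ± 63.8 in male libraries) and -0.09 for Grk6 (96.5 ± 8.77 and 103 ± 10.6 CPM) on the log2 scale. With control 5 left out these differences were 0.11 for Arrb1 and -0.05 for Grk6. That of Grk4 turned from 0.08 to -0.11, the largest then. The interaction of sex and condition was called for 0 genes by edgeR and 4 by DESeq2, none of them a member, and reached an unadjusted p under 0.05 for 0 members and 1.72% of all genes. Within-sex values are differences of mean log2(CPM + 0.5), a scale that shrinks those of low genes such as Grk4, so they do not add up to the edgeR interaction. The within-sex difference of Arrb1 was -0.23 in males and -0.23 in females, and that of Grk6 was -0.25 and -0.14. That of Arrb2 was -0.07 in males and 0.35 in females, with an interaction of 0.42 (SE 0.22, unadjusted p = 0.0856 by edgeR). Grk4 had an interaction of -0.78 (SE 0.54, 0.47 in males and -0.08 in females, unadjusted p = 0.181 by edgeR) and Grk5 one of -0.35 (SE 0.33, -0.07 and -0.45, unadjusted p = 0.314 by edgeR). Without control 5, whose sex is uncertain, 0 members were called in either comparison and the interaction was 0.48 for Arrb2, -0.51 for Grk4 and -0.51 for Grk5 (unadjusted p = 0.108, 0.428 and 0.213 by edgeR).

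The partners of the kinases and arrestins were examined in 8 lists with 58 genes, of which 57 were listed in the deposited counts (Arrdc5 was not). None was called by edgeR, and at an unadjusted p under 0.05 1 had a higher mean (Txnip) and 6 a lower mean (Pebp1, Ap2a1, Dnm3, Usp20, Gprasp1 and Arrdc1) in morphine libraries. This is 7 of 57 genes, beside 12.1% of all genes in either direction and 5.31% with lower means. Of the 57 log2 fold changes 35 were below 0, with a median of -0.07, and 2 of them, Gprasp1 and Txnip, did not overlap between groups, or 3.51% beside 6.54% of all genes. The exception by tool was Txnip, which DESeq2 called with an adjusted p of 0.00793.

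In the list of clathrin coat and vesicle formation, 12 of 13 genes had lower means in morphine libraries, beside 9204 of all 18939 genes, with a median log2 fold change of -0.11. None was called, 2 reached an unadjusted p under 0.05 by edgeR (Ap2a1 and Dnm3), and Cltb and Ap2s1 were within 0.01 of 0. Ap2a1, a large subunit of the AP-2 adaptor that arrestins bind, was at 452, 362, 448 and 445 CPM in controls and 297, 377, 398 and 326 CPM in morphine libraries (log2 fold change -0.29, SE 0.12, adjusted p = 0.363 by edgeR). Control 2 was the low control and lay among the morphine libraries. Dnm3, a dynamin that helps to pinch off vesicles, was at 680 ± 184 CPM in control and 502 ± 63.1 CPM in morphine libraries (-0.44, SE 0.18, adjusted p = 0.346 by edgeR).

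Among 12 genes of endosomal sorting and recycling, 9 had lower means in morphine libraries and the median was -0.09. Gprasp1 encodes GASP-1, which directs internalized receptors to lysosomes. It was at 693, 546, 759 and 529 CPM in controls and at 456, 494, 461 and 463 CPM in morphine libraries. The groups did not overlap, and the log2 fold change was -0.43 (SE 0.13), but the adjusted p was 0.198 by edgeR and 0.0542 by DESeq2. The exact permutation test gave p = 0.0286, the smallest it can give. With the telencephalic and choroid plexus scores in the model the value was -0.20 and -0.21. Slc9a3r1, a scaffold that aids receptor recycling, was at 45.3 ± 9.004 and 38.8 ± 4.76 CPM (-0.22, adjusted p = 0.597 by edgeR).

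The alpha-arrestins are relatives of the beta-arrestins that link membrane proteins to ubiquitin ligases, and 4 of the 5 measured had higher means in morphine libraries. Txnip, which binds thioredoxin and restrains glucose uptake, was at 0.846, 1.76, 1.17 and 1.85 CPM in controls and 2.53, 2.79, 2.76 and 3.74 CPM in morphine libraries. The groups did not overlap, at 33 to 182 counts per library, and the log2 fold change was 1.07 (SE 0.27, adjusted p = 0.137 by edgeR, exact permutation p = 0.0286). With the telencephalic and choroid plexus scores in the model it was 0.59 and 0.27. Arrdc1 was at 8.54 ± 0.786 and 6.86 ± 0.902 CPM (-0.31, SE 0.14, adjusted p = 0.406 by edgeR).

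The remaining lists held no called gene. Of 4 ubiquitin enzymes 2 had lower means, among them Usp20, a deubiquitinase that acts on arrestin and receptors (129 ± 14.4 and 110 ± 4.79 CPM, log2 fold change -0.22), and Nedd4, a ubiquitin ligase (-0.14). Of 10 kinases scaffolded by arrestins 6 had lower means, among them Gsk3b, a kinase of glycogen and Wnt signalling (863 ± 138 and 771 ± 85.9 CPM, log2 fold change -0.16, adjusted p = 0.677 by edgeR). In the list of 3 phosphatase 2A subunits the values were at most 0.12 from 0, with 0.12 for Ppp2cb and -0.12 for Ppp2r1a. Of 7 regulators that bind the kinases 4 had lower means. The values furthest from 0 there were those of Rcvrn, the photoreceptor calcium sensor, which had 0 to 4 counts and gives no usable fold, and Cav1 (0.819 ± 0.3005 and 1.195 ± 0.495 CPM, 0.55, adjusted p = 0.594 by edgeR). Photoreceptor Grk1, Sag and Arr3 were at trace level, with 0 to 6, 16 to 48 and 0 to 8 counts per library.

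**Figure D5:**
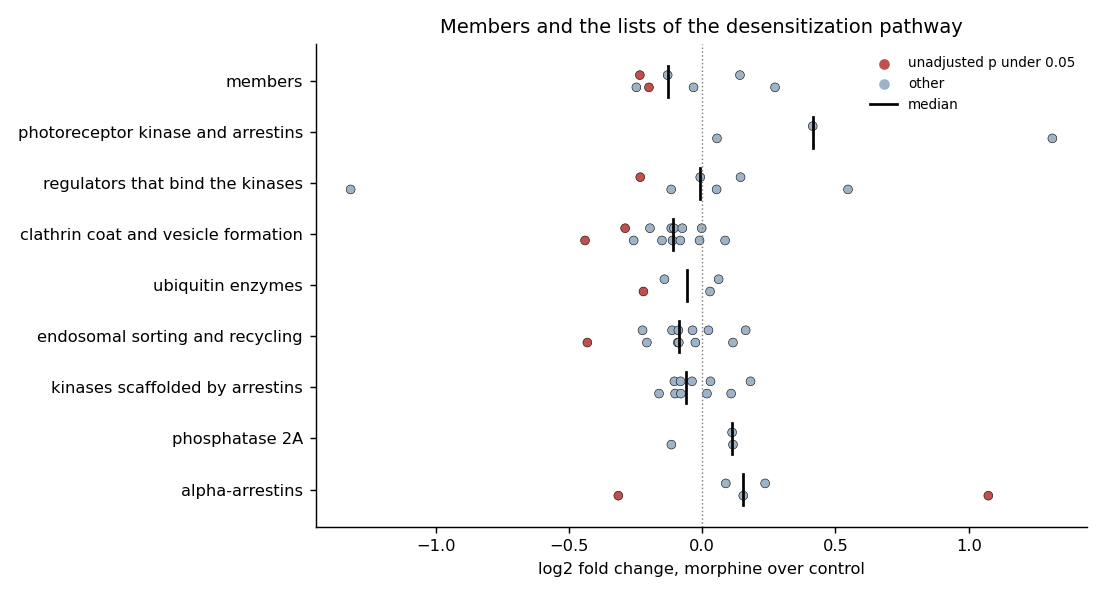
Log2 fold change of morphine over control (x axis) for the 7 members and the 57 measured genes of 8 lists, 1 point a gene, with red for an unadjusted p under 0.05 and black lines for medians. The list medians lie between -0.11 and 0.15 except that of the photoreceptor genes (0.41), the clathrin list has 12 of 13 points below 0, and the points beyond 1 are Arr3, Rcvrn and Txnip, which had few counts.

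For each member with a mean of at least 5 CPM, the gene with the most similar profile over the 8 libraries was found among 10736 genes, by the root mean square difference of the centred log2 CPM. For Adrbk1 it was Slc30a7 (0.0148), against an SD of Adrbk1 itself of 0.0711 on the same scale. For Adrbk2 it was Mcph1 (0.0343), for Grk6 Aamp (0.0453), for Arrb1 Zfp334 (0.0353), for Arrb2 C1qbp (0.0576) and for Grk5 Fam65b (0.0831). The closest profile is a description over 8 libraries of both groups, and none of these 6 genes was itself called (edgeR adjusted p of 0.325 or more).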

How the data were processed

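TRAP RNA of 8 pooled libraries was examined, with groups, sexes and replicate numbers taken from the labels. The authors deposited whole-number read counts per RefSeq transcript, not normalized (24488 transcripts). Transcripts of the same gene each carry the reads they share. The study's methods describe Salmon on an mm10 index and gene-level counts by tximport for DESeq2, but the deposited whole-number transcript counts with shared reads are not that gene-level matrix. The tool that made this table, and any use of strand, are not given in the sources used here. All 8 columns were used, and 0 columns were without a sample.

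The transcript with the most counts stood for its gene, a choice made because the table proved to list transcripts. Genes with 0 counts in all libraries of a fit were left out. This removed none of the 18939 genes when all 8 libraries were used. Counts were tested with edgeR 4.0.16 (R 4.3.3; glmQLFit and glmQLFTest, TMM factors, Benjamini-Hochberg over all genes, called at an adjusted p under 0.05). SEs and 95% intervals were derived from the F statistic. CPM uses TMM-scaled library sizes. Exact two-sided permutation tests used log2(CPM + 0.5). Intervals of gene count ratios cover counting error only, since PCR copies are not marked. DESeq2 1.42.0 and limma 3.58.1 served as alternatives. Scripts were tested on simulated data.

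Lengths and coding ends came from GENCODE M21, in which 11 of the 12 member transcripts were found, and gene positions from RefSeq GRCm38.p6. The GENCODE ends may differ from those used for counting. No exon of another gene overlapped these models. A marker score averages log2 CPM (prior count 2) over its list.

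The members and lists were chosen with earlier results of these data known. Genes were named by rule: the 7 members, Oprm1, in each pathway list the called genes or else the 2 with the largest absolute log2 fold change, the most abundant gene of marker lists, and for each member the gene of most similar profile. Beyond the rule, genes at an unadjusted p under 0.05, Kcnj13, Cltb, Ap2s1 and Arrdc5 are named, chosen after their values were seen, and Grk1 as the rest of its list. The values of 1 gene that the rule names are not reported here. Of 9 marker lists, the most abundant genes of the others were Pou4f1 (medial habenula, list sum 43.0 to 68.5 CPM), Slc1a2 (astrocytes, 246 to 434 CPM), Mbp (oligodendrocytes, 116 to 1437 CPM), Csf1r (microglia, 0.956 to 5.22 CPM) and Flt1 (endothelium, 2.21 to 5.85 CPM).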

Additional observations from a re-analysis of the deposited data

Results flagged for a closer look

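In 58 groups of 4 libraries (CPM of the members and named pathway genes, and relative transcript counts), the library furthest from the rest was compared with Dixon's 95% critical value, and 3 stood apart. Chance flags about 1 in 20 groups. Control 2 was low for Ap2a1 (362 CPM, with the other controls at 445 to 452). Morphine 7 was high for Nedd4 (610 CPM, others 559 to 562). Morphine 3 had the highest count of the Grk6 transcript NM_011938 relative to NM_001038018 (73.4%, others 71.0 to 71.4%), and without it the groups still did not overlap. None of the 7 members had a library that stood apart in CPM.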

How the results depend on the processing

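The count of called members was 0 in all 18 alternatives. Signs were kept in all of them for Grk5, Grk6, Arrb1 and Arrb2. They turned for Adrbk1 without control 2 (0.012; -0.079 to 0.012 over the 8 omissions), and with the choroid plexus score for Adrbk2 (0.024) and Grk4 (-0.14). The cause was not tested. With 1 library left out, the log2 fold change ran from 0.14 to 0.44 for Grk4 and from 0.06 to 0.21 for Arrb2. The lowest adjusted p over the alternatives was 0.134 for Arrb1, 0.291 for Grk6, and 0.347 to 0.795 for the other members. Of all genes, 37 were called by edgeR, 502 by DESeq2, 14 with filterByExpr, 15 with at least 10 counts in every library, 110 with sex in the model, 23 by limma-voom, 22 with counts summed over transcripts, 1 with the score of telencephalic markers, and 0 with that of choroid plexus markers (596 at an unadjusted p under 0.05 by edgeR). Leaving out 1 library gave 0 to 77 called genes: 0 without morphine 4 or morphine 8 (1696 and 1664 at an unadjusted p under 0.05 by edgeR), 1 without control 1, 11 without morphine 7, 20 without control 5, and 77 without control 6 or morphine 3. Of the pathway genes DESeq2 called 1, Txnip. With the shorter of the tied transcripts, chosen after the data were seen, Arrb1 was at 133 and Grk6 at 49.9 CPM per kb. No paired analysis was possible because the groups share no replicate number. Depth limits Grk4, Txnip and the photoreceptor genes.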
